A study of Mus musculus with 27 samples.

Results

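Expression of 9 genes of cardiac calcium handling and excitation was followed in wild-type (WT) and Zfp512b knockout (KO) mouse embryonic stem cells (mESCs) and in the cells derived from them. The genes were Ryr2, Casq2, Trdn, Atp2a2, Pln, Sln, Cacna1c, Slc8a1 and Hcn4. They were chosen by name, and their rows were taken from the 8 deposited comparison tables, each of which lists 25209 genes. All cells were of the V6.5 mESC line. The KO clones #4 (KO4) and #8 (KO8) carry a triple transcription terminator behind exon 3 of Zfp512b. Ahead of the terminator lies a gene for either mCherry or puromycin resistance. Each is a single clone, and the WT cells had not been put through the same editing. RNA was sequenced from WT, KO4 and KO8 cells in the naive state (Day 0, 2i and LIF, 3 libraries per genotype), in the primed state (Day 2, serum and LIF), as neural progenitor cells (NPC, Day 10, embryoid bodies with retinoic acid) and as cardiomyocyte cultures (CM, Day 7.5, embryoid bodies with vitamin C), with 2 libraries per genotype at each of the later stages. Whole cultures were sequenced, so fewer cells of a type and less RNA per cell cannot be told apart. The labels number the replicates without saying whether they were separate cultures, and p-values then measure only the spread between these libraries.

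In a heart muscle cell an action potential opens the L-type calcium channel, whose pore is encoded by Cacna1c, and the calcium that enters opens the ryanodine receptor Ryr2 on the sarcoplasmic reticulum, which releases the store. Calsequestrin (Casq2) buffers calcium inside the store and triadin (Trdn) holds it near the receptor. The pump Atp2a2 (SERCA2) refills the store and is restrained by the small membrane proteins phospholamban (Pln) and sarcolipin (Sln), while the sodium/calcium exchanger Slc8a1 (NCX1) moves calcium out of the cell. Hcn4 encodes the channel of the pacemaker current and is abundant in the sinoatrial node and in the early embryonic heart.

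The deposited tables give the mean over the libraries of a KO clone and of WT, called the base mean, and not the value of each library. Base means are printed to 10 significant digits, and the whole reads of each library behind them were recovered wherever the reads that fit both tables of a stage could be told from all others. The WT libraries were identified as those whose reads appear in both tables of a stage. Values below are normalized reads, which are reads divided by the size factor of the library, or RPM. RPM are normalized reads per 1000000 of the summed base means of WT and KO4 at that stage, unless stated otherwise. Levels of different genes are compared only per kilobase of exon. The depth estimated from these sums and the size factors was 15.1 to 39.7 M counts (units of 1000000 reads) per library and 17.1 to 19.3 M in CM. Zfp512b itself was at 1118 and 1060.1 normalized reads in the WT CM libraries, at 184 and 209 in KO4 and at 155 and 173 in KO8, which is 18.0% and 15.1% of WT. In the primed state the KO4 and KO8 clones were lower by 2.21 and 2.49 on the log2 scale. Its reads were not recovered in the naive state and in NPC.

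In CM, reads were recovered for 7 of the 9 genes. Atp2a2 and Slc8a1 were too abundant, Sln had no read, and Casq2 was below the minimum mean of 10 normalized reads, which left Ryr2, Trdn, Pln, Cacna1c and Hcn4 for the test. Trdn, Pln, Cacna1c and Hcn4 were all lower in KO4. In KO8, Trdn, Pln and Cacna1c were lower and Hcn4 was higher. The reads of Ryr2 rest on a choice among combinations that changes its direction against WT, and with the reads chosen its value was lower in KO4 and was not called in KO8. Of the 9153 genes tested against WT in KO4, 28.3% were called lower at an adjusted p below 0.05. In KO8 12.3% of 9143 were called lower, and of the 8824 genes tested in both clones 8.01% were called lower in both and 3.55% lower in KO4 and higher in KO8. Pln in both clones and Trdn in KO4 reached the minimum mean through the WT libraries alone, so the counts describe these genes and do not support a direction of the group.

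**Figure D1:**
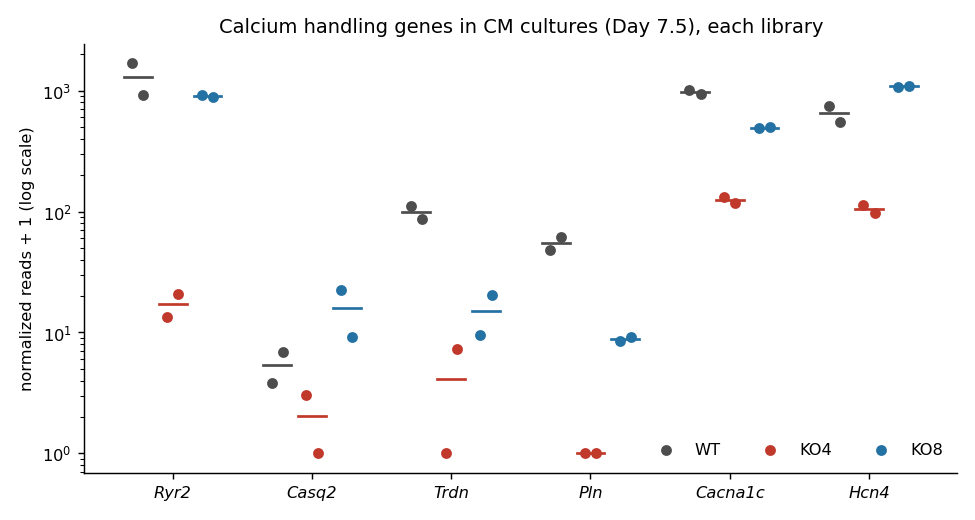
Normalized reads plus 1 (log axis) of 6 genes in each CM library of WT, KO4 and KO8; points are libraries and bars are group means. The KO4 libraries lie below the WT libraries for Trdn, Pln, Cacna1c, Hcn4 and, with the reads chosen among 30 combinations, Ryr2. The KO8 libraries lie below WT for Trdn, Pln and Cacna1c and above WT for Hcn4 and Casq2. Casq2 had few reads and was not tested.

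The promoters of 3 of these genes are shown because their changes differed: Pln was lower in both clones, Hcn4 was lower in KO4 and higher in KO8, and Ryr2 was higher in KO8 than in KO4. The sequences are the 250 bases before the annotated start in RefSeq (mouse build GRCm38.p6, 5′ to 3′ on the gene's strand), with matches to the motifs searched in capitals.
Pln, chr10:53337436-53337685, + strand: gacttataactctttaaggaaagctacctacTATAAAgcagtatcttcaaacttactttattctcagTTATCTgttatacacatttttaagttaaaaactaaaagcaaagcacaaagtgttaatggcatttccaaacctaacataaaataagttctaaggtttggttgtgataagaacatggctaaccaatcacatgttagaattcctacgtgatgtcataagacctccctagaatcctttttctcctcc
Ryr2, chr13:12106946-12107195, - strand: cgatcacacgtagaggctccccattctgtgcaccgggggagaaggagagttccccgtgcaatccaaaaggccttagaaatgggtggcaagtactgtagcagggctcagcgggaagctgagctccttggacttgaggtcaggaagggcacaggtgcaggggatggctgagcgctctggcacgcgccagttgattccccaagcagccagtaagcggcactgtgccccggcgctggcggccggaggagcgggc
Hcn4, chr9:58822699-58822948, + strand: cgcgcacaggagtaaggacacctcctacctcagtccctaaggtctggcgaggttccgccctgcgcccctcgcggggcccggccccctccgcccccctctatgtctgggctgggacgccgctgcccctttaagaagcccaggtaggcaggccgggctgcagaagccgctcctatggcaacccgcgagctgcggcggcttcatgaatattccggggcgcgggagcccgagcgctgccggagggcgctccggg
The Pln promoter had 32.8% G and C and 1 CpG, against 63.2% and 14 CpG for Ryr2 and 71.2% and 25 CpG for Hcn4. Over all 32851 promoters in the table the medians were 52.4% and 6 CpG. Both strands were searched for the TATA box TATAAA, for the MEF2-type motif (CTA, any 4 bases, TAG) and for the GATA-type motif AGATAA. The letters TATAAA began 219 bases before the Pln start and was present in 12.37% of all promoters. AGATAA was found 183 bases before the Pln start, on the opposite strand, and also in the Slc8a1 promoter, and in 9.99% of all promoters. The MEF2-type motif was in none of the 8 promoters listed for Ryr2, Casq2, Pln, Cacna1c (3 promoters), Slc8a1 and Hcn4, and in 3.2% of all. The Ryr2 and Hcn4 promoters held none of these letters, and no promoter was listed for Trdn, Sln and Atp2a2.

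Release of calcium from the store was represented by Ryr2, Trdn and Casq2. Ryr2 (mm9 chr13:11645370-12199212, - strand) was at 1677 and 922 normalized reads in the WT CM libraries, at 12.3 and 20.0 in KO4 and at 926 and 879.7 in KO8. KO4 was far below both other groups, and the lower WT library lay between the KO8 libraries. The KO4 mean was 1.24% of WT, a log2 fold change of -6.22 (SE 0.31, adjusted p = 5.6e-07), and the KO8 mean was 69.5% of WT (log2 fold change -0.46, SE 0.21, adjusted p = 0.146). These values rest on a choice, because 30 combinations of whole reads fit both Ryr2 base means. The combination used had the closest replicates, 1.82-fold apart at most, and held 99.9% of the summed likelihood of all 30. In the next closest, with replicates up to 2.05-fold apart, KO4 and KO8 would be higher than WT by 1.11 and 2.01 on the log2 scale, and KO4 was below WT in 9 of the 30. Since agreement between replicates chose the reads, the SE and adjusted p of Ryr2 are given as a description. Without the choice, the base means alone put KO8 above KO4 by 886 normalized reads. With the reads chosen, the KO8 log2 fold change was -0.89 without the WT library with 922 normalized reads.

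Trdn (chr10:32803289-33196515, + strand) was at 110.0 and 85.7 normalized reads in WT, at 0 and 6.31 in KO4 and at 8.45 and 19.5 in KO8. Both clones were below both WT libraries. The KO4 mean was 3.22% of WT (log2 fold change -5.18, SE 0.81, adjusted p = 5.1e-04) and the KO8 mean 14.3% (log2 fold change -2.82, SE 0.41, adjusted p = 0.00107). In KO4 Trdn reached the minimum mean through the WT libraries alone, so its adjusted p there is given as a description. The KO4 call was lost without either WT library, with adjusted p of 0.0661 and 0.0587.

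Casq2 (chr3:101890338-101950437, + strand) had few reads in CM. It had 3 and 6 reads in the WT libraries, 2 and 0 in KO4 and 23 and 8 in KO8. The KO8 mean was 3.42-fold that of WT, with no test below the minimum mean, and KO4 was at or under the floor of 3 reads over the group. The skeletal muscle calsequestrin Casq1 was measured at a higher level in these cultures and is described with the paralogs.

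Uptake into the store was represented by Pln, Sln and Atp2a2. Pln (chr10:53057492-53065805, + strand) was at 47.6 and 61.1 normalized reads in WT, at 0 in both KO4 libraries and at 7.51 and 8.19 in KO8. All KO libraries were below the WT libraries. With the floor of 3 reads over the group in place of 0, the KO4 mean was 34.9-fold lower than WT. Both mates of a read pair were counted, so this floor is not a strict bound. Pln reached the minimum mean through the WT libraries alone, so each adjusted p of Pln is given as a description (3.8e-05 in KO4). In KO8 Pln was at 14.5% of WT (log2 fold change -2.63, SE 0.41, adjusted p = 0.00141), and it was 5.04-fold higher than the same floor in KO4. Pln lies inside the gene model Gm9766 on the other strand and contains Gm10942, and reads of such genes cannot be told apart without strand.

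Sln (chr9:53698058-53701651, + strand) had 0 reads in all 27 libraries. A count of 0 allows up to 3 reads if reads are independent, so sarcolipin RNA was not detectable at this depth at any stage.

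Atp2a2 (chr5:122903531-122952183, - strand) was abundant at every stage. Its base mean in CM was 11001 normalized reads in the table of WT and KO4 and 12011 in that of WT and KO8. In RPM, with the summed base means of the table as the depth, these were 612 and 645, against 557 and 559 in the primed state, 577 and 595 in the naive state and 375 and 390 in NPC. From both base means, KO8 exceeded KO4 by 1345 normalized reads in CM. The values of single libraries, and with them the change against WT, were not recovered for Atp2a2.

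**Figure D2:**
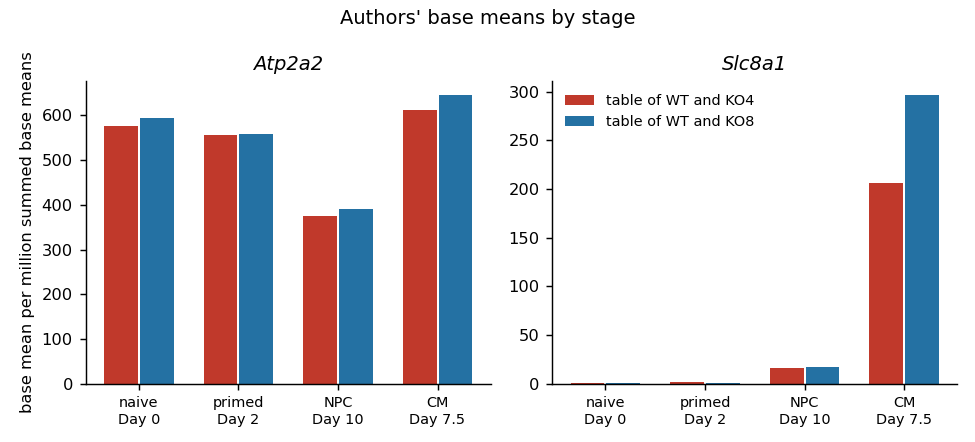
The authors' base means of Atp2a2 and Slc8a1 in RPM, with the summed base means of the table as the depth, at the 4 stages, in the table of WT and KO4 and the table of WT and KO8; there is no error because each bar is a pooled mean. Atp2a2 varies from 375 to 645 RPM over the stages, while Slc8a1 is at 0.302 to 1.29 RPM in naive and primed cells and at 206 and 296 in CM.

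Calcium movement across the surface membrane was represented by Cacna1c and Slc8a1. Cacna1c (chr6:118542314-119146249, - strand) was at 1004 and 932 normalized reads in the WT CM libraries, at 130.3 and 117 in KO4 and at 486 and 503 in KO8. The 3 groups did not overlap, and KO8 lay between KO4 and WT. The KO4 mean was 12.8% of WT, a log2 fold change of -2.96 (SE 0.13, adjusted p = 2.9e-07). In KO8 it was 51.1% of WT (log2 fold change -0.97, SE 0.095, adjusted p = 1.25e-04). Cacna1c was the gene among these whose replicates agreed best in WT, 1.08-fold apart, and it overlaps Dcp1b on the other strand.

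Slc8a1 (chr17:81785359-82048947, - strand) had base means of 3702 and 5514 normalized reads in the CM tables. KO8 therefore exceeded KO4 by 3314 normalized reads, while WT could not be above 7404 and KO8 not below 3314. Over the stages its base mean went from 1.29 and 1.14 RPM in primed cells to 206 and 296 in CM, and it was 16.0 and 17.0 in NPC. The bounds do not settle whether KO8 was above or below WT.

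Hcn4 (chr9:58671319-58708762, + strand), the pacemaker channel, was at 749.7 and 549.8 normalized reads in the WT CM libraries, at 112 and 96.7 in KO4 and at 1066 and 1101 in KO8. The groups did not overlap, with KO4 lowest and KO8 highest. The KO4 mean was 16.1% of WT (log2 fold change -2.61, SE 0.18, adjusted p = 2.9e-06), and the KO8 mean was 1.67-fold that of WT (log2 fold change 0.75, SE 0.13, adjusted p = 0.00297). The base means alone put WT at no more than 754 and KO8 at no less than 979 normalized reads.

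**Figure D3:**
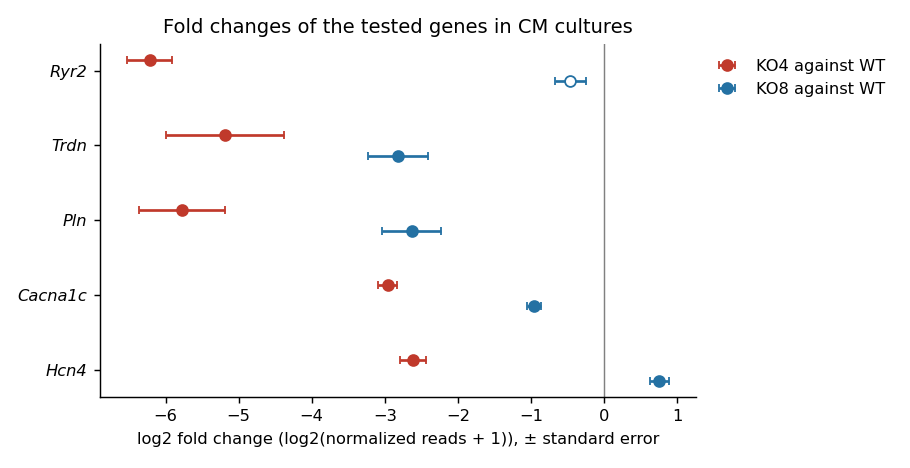
Log2 fold changes of the 5 tested genes in CM (Ryr2 with the reads chosen), on the log2(normalized reads + 1) scale, of KO4 and KO8 against WT; bars are standard errors, filled points were called and the open point was not. KO4 values run from -6.22 to -2.61, and KO8 values from -2.82 for Trdn to 0.75 for Hcn4.

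KO8 was also tested against KO4 directly, on a scale set by the WT libraries that both tables share. In this comparison 29.8% of 9194 genes were called higher in KO8, and 54.2% of all calls were higher, or 44.0% with libraries scaled to their upper quartile. Ryr2, Cacna1c and Hcn4 were the 3 genes that reached the minimum mean, and all were higher in KO8, Ryr2 with the reads chosen among 30 combinations. The log2 differences were 1.99 for Cacna1c (SE 0.12, adjusted p = 7.8e-06), 3.37 for Hcn4 (SE 0.11, adjusted p = 7.5e-07) and, as a description, 5.76 for Ryr2 (SE 0.24, adjusted p = 1.7e-06). As ratios of means, KO8 was 4.00-fold above KO4 for Cacna1c, 10.4-fold for Hcn4 and 55.9-fold for Ryr2. Zfp512b did not pass the test between the clones (log2 difference -0.26, SE 0.15, adjusted p = 0.186).

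Per kilobase of exon, the order of levels in WT CM cultures was Hcn4 (9.52 RPM per kilobase), Cacna1c (6.11), Pln (1.22), Trdn (1.18) and Casq2 (0.0885). Pln and Trdn, which are neighbors in this order, differed by less than the spread of their WT libraries. In KO8 the order began with Hcn4 at 15.9 and Cacna1c at 3.12, and in KO4 the highest of these 5 was Hcn4 at 1.53. Ryr2 is left out of this order because its place changes with the combination of reads chosen.

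Markers of the cell types in these cultures also differed between the groups. Of 14 cardiomyocyte markers in the tables, reads were recovered for Tnni3, Myl2 and Nppa in CM. None of the 3 was at 0 in every library of a group, and their summed level was 66.2 to 80.5 RPM in WT, 1.43 to 1.46 in KO4 and 13.6 to 16.6 in KO8. Myl2 made up most of the WT sum (909 and 1129 normalized reads in WT, 165 and 205 in KO8). Tnni3 was at 242 and 283 in WT and 51.6 and 70.7 in KO8. Nppa was closer to WT in KO8, at 38.2 and 35.5 in WT, 7.18 and 1.05 in KO4 and 27.2 and 22.5 in KO8. The other 11, among them Myh6, Myh7, Tnnt2, Actn2 and Ttn, are known by base means, and KO8 exceeded KO4 for each, by 696 normalized reads (Tnnc1) to 8023 (Myh7). The cardiac transcription factor Nkx2-5 was at no more than 1221 normalized reads in WT and at no less than 1355 in KO8. The endothelial marker Emcn was the only recovered of 5, at 31.8 to 42.6 RPM in WT, 0.171 to 0.351 in KO4 and 12.8 to 13.4 in KO8. Of 5 neural markers only Map2 was recovered, at 5.24 to 5.43 RPM in WT, 15.6 to 19.5 in KO4 and 2.40 to 3.25 in KO8, and the base mean of Sox1 was 1757 normalized reads in the table with KO4 and 84.9 in that with KO8. The 4 recovered of 5 pluripotency markers, with none at 0, summed to 59.0 to 74.7 RPM in WT, 132 to 183 in KO4 and 24.4 to 25.7 in KO8. Of these 4, 3 were called higher in KO4, while Klf4 was lower, at 265 and 282 normalized reads in WT and 113 and 87.3 in KO4. The 2 recovered of 5 blood markers, Gata1 and Runx1, summed to 39.2 to 52.8 RPM in WT, 18.9 to 19.2 in KO4 and 86.4 to 87.2 in KO8. The 2 recovered of 5 endoderm markers, Apoa1 and Foxa2, were at 68.8 RPM in the WT library with the higher Ryr2 and 24.8 in the other, at 3.20 to 7.31 in KO4 and at 75.03 to 75.32 in KO8. Smooth muscle (2 of 5 recovered) summed to 57.5 to 68.0 RPM in WT, 46.4 to 47.4 in KO4 and 35.6 to 37.1 in KO8. Cnn1 made up most of this sum (1016 and 1177 normalized reads in WT, 831 and 850 in KO4, 625 and 622 in KO8). Myh11 differed from it, at 17.7 and 45.3 in WT, 2.05 and 2.10 in KO4 and 42.3 and 18.4 in KO8. Dcn, the only recovered of 5 fibroblast and matrix markers, was at 2.75 to 3.84 RPM in WT, 1.05 to 1.83 in KO4 and 10.3 to 14.7 in KO8. The 7 skeletal muscle markers, all recovered, summed to 74.3 to 85.8 RPM in WT, 35.3 to 39.2 in KO4 and 29.4 to 32.3 in KO8, with Myod1, Myog, Myf5 and Ckm at fewer than 10 reads in each library and Myf5 and Ckm at 0 in KO4. Acta1 made up most of this sum (1240 and 1420 normalized reads in WT, 422 and 394 in KO4), while Actn3 was called higher in KO4 (58.7 and 84.7 in WT, 282 and 228 in KO4). The part of any of these cell types in the changes of the calcium genes was not tested.

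At the earlier stages and in NPC the same genes were measured in the same clones. In WT cells the level went from 2.88 RPM in primed cells to 72.3 in CM for Ryr2 (with the CM reads chosen), from 0 to 53.9 for Cacna1c, from 0.223 to 36.1 for Hcn4, from 0.114 to 5.44 for Trdn and from 0 to 3.02 for Pln. These are levels without a test between stages. NPC held Cacna1c at 15.0 RPM, Hcn4 at 7.48 and Ryr2 at 3.28. Casq2 went the other way, with 0.657 RPM in naive and 0.760 in primed WT cells against 0.231 in NPC and 0.242 in CM.

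**Figure D4:**
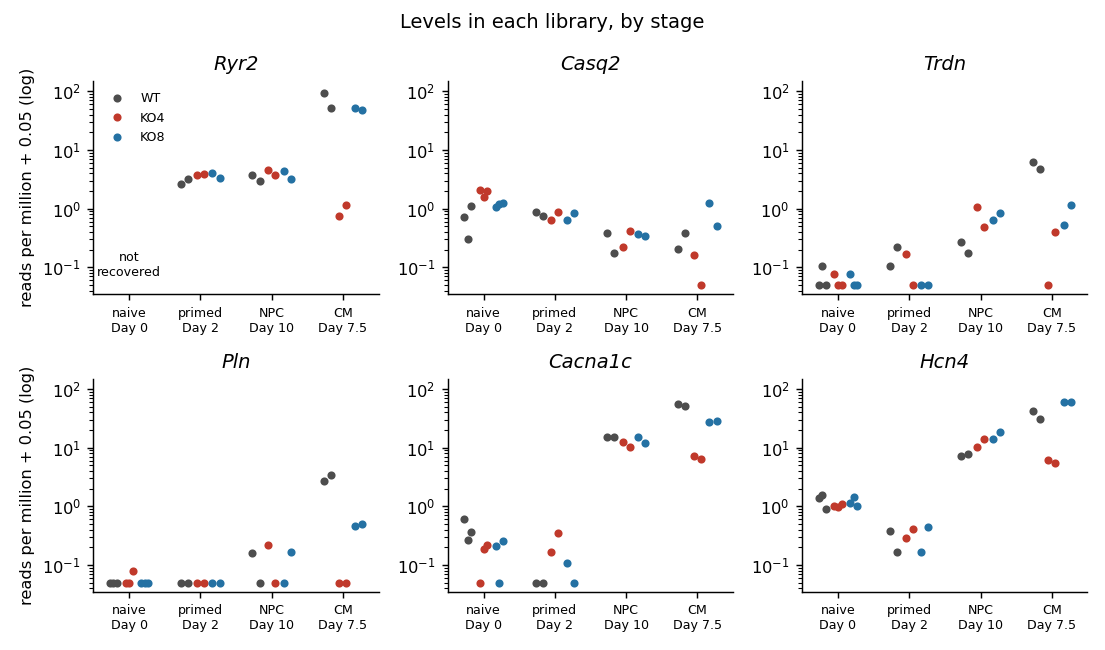
RPM plus 0.05 (log axis) of 6 genes in each library at the 4 stages; points are libraries of WT, KO4 and KO8, and Ryr2 was not recovered in naive cells. In WT, Trdn, Pln, Cacna1c, Hcn4 and, with the CM reads chosen among 30 combinations, Ryr2 are highest in CM, where the KO4 points lie below WT. Casq2 is at 0.242 RPM in CM and 0.760 in primed WT cells.

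In naive cells reads were recovered for 7 genes, and Casq2, Hcn4 and Slc8a1 were tested. Casq2 was at 24.6, 9.00 and 37.6 normalized reads in WT, at 72.3, 55.9 and 69.8 in KO4 and at 36.6, 41.7 and 43.1 in KO8. All KO4 libraries were above all WT libraries, whereas KO8 and WT overlapped. Casq2 was higher in KO4 by 1.63 on the log2 scale (SE 0.32, adjusted p = 4.1e-04), where 10.3% of 2134 tested genes were called higher. In KO8 the log2 fold change was 0.95 (SE 0.35, adjusted p = 0.059). It passed the test without the WT library with 37.6 normalized reads (log2 fold change 1.37, adjusted p = 0.00101). Hcn4, at 31.4 to 55.01 normalized reads in WT, was not called in KO4 (log2 fold change -0.29, SE 0.26) or KO8 (-0.11, SE 0.26). Slc8a1, at 10.9 to 17.0 in WT, was not called either (KO4 -0.80, SE 0.52, KO8 -0.98, SE 0.54), in a comparison with 18.1% of 2204 genes called for KO8 (70.4% of them higher, or 53.0% with libraries scaled to their upper quartile). Ryr2 had base means of 182 and 185 normalized reads in naive cells, and its libraries were not recovered. Cacna1c had 8 to 22 reads in the WT libraries and 0 to 7 in the KO libraries, below the minimum mean, and Trdn and Pln had at most 2 reads in any library.

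In primed cells Casq2, Ryr2 and Slc8a1 were tested and none was called in either clone, with 19.4% of 9217 genes called in KO4 and 16.1% of 9226 in KO8. Ryr2 was at 44.7 and 54.9 normalized reads in WT, at 64.1 and 66.7 in KO4 and at 69.5 and 56.0 in KO8. Its log2 fold changes were 0.39 in KO4 (SE 0.26, adjusted p = 0.302) and 0.33 in KO8 (SE 0.27, adjusted p = 0.463). Both clones were above both WT libraries, and neither difference passed the test. Casq2 was at 10.1 to 14.4 and Slc8a1 at 14.3 to 30.4 normalized reads over all libraries. Hcn4, Cacna1c, Trdn and Pln had at most 6 reads in any library.

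In NPC Hcn4, Cacna1c, Slc8a1 and Ryr2 were tested. Hcn4 was at 119 and 132 normalized reads in WT, at 172 and 239.9 in KO4 and at 232 and 313 in KO8. Both clones were above both WT libraries. The log2 fold change was 0.69 in KO4 (SE 0.19, adjusted p = 0.0132) and 1.09 in KO8 (SE 0.22, adjusted p = 0.031), in comparisons with 17.7% of 9479 genes called in KO4 and 6.82% of 9575 in KO8. The KO4 call was lost without the KO4 library at 239.9 (log2 fold change 0.45, adjusted p = 0.328), and the KO8 call was lost without either WT library (adjusted p of 0.342 and 0.231), where limma called 0 genes and 1026 and 1267 had an unadjusted p below 0.05. Slc8a1 was at 318 and 311 normalized reads in WT, at 227 and 222 in KO4 and at 281 and 224 in KO8. It was lower in KO4 (log2 fold change -0.48, SE 0.14, adjusted p = 0.0195), a call lost without any 1 of 3 of the libraries (adjusted p of 0.0573 without the WT library at 318, 0.0844 and 0.113 without either KO4 library), and was not called in KO8 (-0.33, SE 0.17, adjusted p = 0.334). Cacna1c, at 253 in both WT libraries, had log2 fold changes of -0.40 in KO4 (SE 0.16, adjusted p = 0.0899) and -0.16 in KO8 (SE 0.18, adjusted p = 0.671). Ryr2 had log2 fold changes of 0.30 (SE 0.27) and 0.16 (SE 0.32) and was not called. Trdn had 4 and 2 reads in WT, 18 and 7 in KO4 and 11 and 14 in KO8, below the minimum mean.

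Hcn4 in KO4 was thus lower than WT in CM and higher in NPC, where the call depended on the KO4 library at 239.9 normalized reads. The test that follows is of the difference between the stages and not of the rise in NPC by itself. The change of the KO4 effect between CM and NPC was tested in a fit over both stages, and was -3.30 on the log2 scale for Hcn4 (SE 0.28, adjusted p = 1.64e-06) and -2.56 for Cacna1c (SE 0.19, adjusted p = 5.7e-07). For KO8 the change of effect between these stages was -0.34 for Hcn4 (SE 0.25, adjusted p = 0.419) and -0.81 for Cacna1c (SE 0.18, adjusted p = 0.0153).

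Other genes of calcium handling and membrane excitation were described from a list of 78 genes, all present in the tables, of which 59 had recovered reads in CM. In KO4, 54 were tested, and 33 were lower, 12 higher and 9 not called, where 28.3% of all tested genes were called lower and 23.7% higher. Their median log2 fold change was -1.29, against -0.04 over all tested genes. In KO8, 56 were tested, and 19 were lower, 7 higher and 30 not called, with a median of -0.20 against -0.01 over all, where 12.3% of all tested genes were called lower and 11.3% higher. Without the KO8 library in which Kcna5 was higher, 4 were higher in KO8. Of the 54 tested in both clones, 16 were lower in both, 1 was higher in both, 4 were lower in KO4 and higher in KO8, and 3 were higher in KO4 and lower in KO8. Over the 8824 genes tested in both, the shares in this order were 8.01%, 4.06%, 3.55% and 1.79%. Genes such as Gja5, Abcc9, Scn4b and Casq1 reached the minimum mean in KO4 through the WT libraries alone. The counts therefore describe these genes and do not support a direction of the list.

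Among the 10 with the largest change in both clones were the channel and junction genes Gja5, Abcc9, Scn4b and Kcna5. Gja5, the gap junction protein connexin 40 of atria and conduction system, was at 880.2 and 1245 normalized reads in WT, at 4.10 and 1.05 in KO4 and at 87.3 and 173 in KO8. Its log2 fold changes were -8.34 (SE 0.43) and -3.08 (SE 0.28), the largest decrease on the list in both clones. Abcc9, the regulatory subunit of ATP-sensitive potassium channels, changed by -5.66 in KO4 and -1.92 in KO8. The sodium channel beta subunit Scn4b (-4.76 and -1.77) was also lower in both. The voltage-gated potassium channel Kcna5 was the exception, higher by 1.41 in KO4 (adjusted p = 0.00157) and by 1.02 in KO8 (adjusted p = 0.0249), from 42.9 and 40.4 normalized reads in WT. The KO4 call of Abcc9 was lost without either WT library (adjusted p of 0.0547 and 0.0506), and the KO8 call of Kcna5 without the KO8 library at 100.5 normalized reads (log2 fold change 0.79, adjusted p = 0.257). The KO8 call of Abcc9 was also lost in 1 fit over 3 groups (adjusted p = 0.0825), and that of Kcna5 without a filter on low values (adjusted p = 0.0553).

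Genes of the store and its regulation were also among the 10. Itpr2, a calcium release channel gated by inositol trisphosphate, was at 532 and 437 normalized reads in WT, at 41.0 and 31.5 in KO4 and at 149 and 155 in KO8, with log2 fold changes of -3.71 (SE 0.22) and -1.66 (SE 0.15). Akap6, an anchor of protein kinase A at the nuclear envelope and store, changed by -2.70 and -1.28, and the beta-1 adrenergic receptor Adrb1 by -1.82 and -0.88. For Adrb1 the KO4 call was lost without either WT library (adjusted p of 0.0797 and 0.068), and the KO8 call without 3 of 4 libraries (adjusted p of 0.0808 to 0.178), without a filter (0.0649) and in 1 fit over 3 groups (0.0911). Casq1 was at 250.8 and 298 normalized reads in WT, at 8.21 and 5.26 in KO4 and at 76.1 and 65.5 in KO8. It was called lower in both clones (log2 fold changes -5.17 and -1.94). The KO4 call is a description, since Casq1 reached the minimum mean there through the WT libraries alone.

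**Figure D5:**
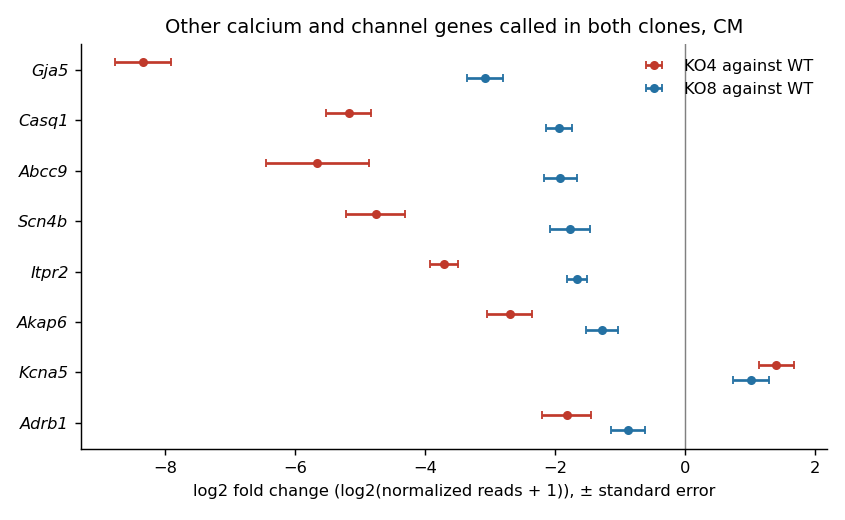
Log2 fold changes in CM, on the log2(normalized reads + 1) scale, of 8 of the 17 other calcium handling and channel genes called in the same direction in both clones, for KO4 and KO8 against WT; bars are standard errors. Of the 8 drawn, 7 lie left of 0 in both clones, Gja5 farthest at -8.34 and -3.08, and Kcna5 lies right of 0.

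The paralogs of the 9 genes did not move together in KO4. Of the ryanodine receptors, Ryr1 (89.5 and 131 normalized reads in WT) and Ryr3 (25.2 and 14.8) were not called in KO4 (log2 fold changes 0.14, SE 0.25, and -0.05, SE 0.46) or in KO8 (-0.57, SE 0.29, and -0.97, SE 0.56). Without the WT library at 89.5, Ryr1 was called lower in KO8 (-0.84, adjusted p = 0.0382). Of the pumps, Atp2a1 was lower in KO4 (-2.12, adjusted p = 0.00161) and not called in KO8 (0.02, adjusted p = 0.978). Atp2a3, the SERCA3 pump that is also abundant in blood and endothelial cells, was at 359 and 284 normalized reads in WT, at 106 and 107 in KO4 and at 993 and 917 in KO8, so it was lower in KO4 (-1.57, adjusted p = 7.4e-05) and higher in KO8 (1.58, adjusted p = 5.7e-05).

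Of the calcium channel pores, Cacna1d was at 378 and 386 normalized reads in WT, at 6.16 and 35.8 in KO4 and at 319 and 324 in KO8. It was lower in KO4 (-4.56, SE 0.59, adjusted p = 1.69e-04) and not called in KO8 (-0.25, adjusted p = 0.174). Cacna1s was below the minimum mean in KO4 and WT together, and was higher in KO8 (2.66, SE 0.52, adjusted p = 0.00512). It reached the minimum there through KO8, at 53.5 and 43.0 normalized reads against 11.2 and 3.94 in WT. Its adjusted p is therefore given as a description. The exchangers Slc8a2 and Slc8a3 were higher in KO4, by 0.84 (adjusted p = 7.0e-04) and 1.85 (adjusted p = 0.00283), and were not called in KO8. Without either WT library the KO4 call of Cacna1d was lost (adjusted p of 0.0566 and 0.0582), and without the WT library with 14.9 normalized reads so was that of Slc8a3 (1.51, adjusted p = 0.0619).

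The HCN channel genes Hcn2 and Hcn3 were higher in KO4, where Hcn4 was lower. Hcn2, at 34.5 and 45.3 normalized reads in WT, 196 and 230.3 in KO4 and 46.0 and 54.3 in KO8, was higher in KO4 (2.40, SE 0.25, adjusted p = 4.4e-05) and not called in KO8. Hcn3 was higher in KO4 as well (1.34, SE 0.30, adjusted p = 0.0043), a call lost without either WT library (adjusted p of 0.0662 and 0.0627).

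Genes with the most similar pattern were sought among 6262 genes outside the lists, over the 9 group means of the primed, NPC and CM stages. The measure was the Pearson correlation of the log2 level with the mean log2 level of the 6 genes recovered at all 3 stages. Casq2 followed this mean least (r = -0.20), and the other 5 had r from 0.80 (Ryr2) to 0.93 (Hcn4). Each of the 6 is part of the mean, which raises its own r, and Ryr2 enters with the CM reads chosen. The closest were Hmx2 (r = 0.985), Nkx2-3 (0.983), Itga1 (0.983), Sgpp1 (0.982) and Unc13c (0.980). Nkx2-3, a homeobox transcription factor, was at 36.8 RPM in WT CM, 0.405 in KO4 and 26.8 in KO8, and Itga1, an integrin subunit, at 26.5, 2.95 and 21.6. The points share libraries within a stage, and a correlation over 9 means is given as a description.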

How the data were processed

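RNA-seq was performed on 27 libraries of V6.5 mESCs (WT, KO4 and KO8 at 4 stages). Per the labels and the study's methods, reads were trimmed with Trim Galore 0.6.7, aligned to mm9 with HISAT2 2.2, counted per gene with featureCounts and compared with DESeq2 1.46.0. The authors deposited 8 tables with a base mean per gene, a signal in reads divided by size factors and averaged over a clone and WT. The 5 further columns of each table hold the authors' own comparisons (log2 fold change, its standard error, Wald statistic, p-value and adjusted p-value) and were not used.

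Whole reads and size factors per library were recovered from the 10 significant digits of the base means, by searching for whole reads that fit both tables of a stage. Reads were used below a base mean of 60 (naive) or 1000 (other stages), plus Ryr2 in CM, and only where they held at least 99% of the summed likelihood. Below these limits reads were recovered for all genes but 2 in NPC and 6 in the naive state. WT libraries were those whose reads appear in both tables, for each of which 108 to 209 genes had their only read in that library and appeared in both tables (0 in 1 table only), while each KO library had 100 to 212 such genes, in the table of its clone only. Library numbers given here only name the libraries. In 25 of 27 libraries more genes had 2 reads than 1, so mates were counted and counts are not independent molecules. Floors of 3 reads treat reads as independent and cover counting error only, so folds taken with them are not strict bounds. Of genes with reads, 39.7% (naive), 78.9% (primed), 75.7% (CM) and 75.3% (NPC) were recovered. Percentages of genes called refer only to the recovered genes that were used and reached the minimum mean. For KO4 against WT these were 2134 in the naive state and 9153 in CM. Scales of both tables of a stage were joined through the shared WT libraries, whose ratios differed by at most 0.49%.

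Genes with a mean of at least 10 normalized reads were tested with limma 3.58.1 (R 4.3.3, moderated test with a mean-variance trend, two-sided) on log2(normalized reads + 1), with Benjamini-Hochberg adjustment over all tested genes and calls at an adjusted p below 0.05. A fold change on this scale understates the change of low genes. Both scripts were tested on simulated data. KO8 was compared with KO4 in CM, and clone effects between CM and another stage, by the same test. All 9 genes are named at each stage; of the 78 other genes, those named are the 10 with the largest change in both clones in the same direction, and the paralogs. The 5 most similar genes were sought where a CM base mean reached 50. The genes, lists and tests were chosen with earlier results of these data known. Gene positions are from GENCODE on mm9, promoters from RefSeq on GRCm38.p6. Some genes that the rule names are not reported here. Alternatives covered scaling, pseudocount, filter, samples in the fit and each library left out.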

Additional observations from a re-analysis of the deposited data

Results flagged for a closer look

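The results here were singled out because the effect of a clone differed between CM and another stage, or between both clones in CM, in a test of the difference itself, for genes that reached the minimum mean at both stages. All values are differences on the log2 scale, with limma's adjusted p over all genes of the fit.

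In these comparisons the Ryr2 values use the CM reads chosen among 30 combinations, other choices of which change their direction against WT. Since agreement between replicates chose the reads, each adjusted p of Ryr2 here is given as a description and not as support. The KO4 effect was lower in CM than in NPC for Ryr2 (-6.52, adjusted p = 1.9e-07), Hcn4 (-3.30, 1.64e-06) and Cacna1c (-2.56, 5.7e-07). It was lower in CM than in the primed state for Ryr2 (-6.61, adjusted p = 8.9e-06), and than in the naive state for Hcn4 (-2.32, adjusted p = 9.7e-04).

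The KO8 effect was lower in CM than in NPC for Cacna1c (-0.81, adjusted p = 0.0153).

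Between the clones in CM, KO8 was higher than KO4 for Ryr2 (5.76, adjusted p = 1.7e-06), Hcn4 (3.37, 7.5e-07) and Cacna1c (1.99, 7.8e-06). The size of the Ryr2 difference depends on the reads chosen, whereas its base means alone put KO8 above KO4.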

How the results depend on the processing

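No paired analysis was possible because the recovered libraries carry no replicate number, so a replicate block could not be fitted. The calls of Pln, Cacna1c and Hcn4 in CM kept their direction under every alternative run, and their side of the threshold with all libraries. Alternatives were 2 other scalings, pseudocounts of 0.5 and 5, no filter and a mean of at least 50 where the gene reached it. The others were 1 fit over 3 groups and each library left out. Calls of Pln, which reached the minimum mean through the WT libraries alone, are given as a description. Leaving out libraries, Trdn in KO4 ranged from -6.62 to -3.75 on the log2 scale, with the call lost without either WT library, and Ryr2 in KO8 from -0.89 to -0.031. With the next closest combination of Ryr2 reads, added after seeing the data, its log2 fold changes were 1.11 in KO4 and 2.01 in KO8. Counts of genes called while leaving out libraries ranged in CM from 3030 to 3862 for KO4 (4761 with all), from 1159 to 2562 for KO8 (2157) and from 2933 to 4638 between the clones (5046). In NPC they ranged from 0 to 2241 for KO8 (653), in naive cells from 270 to 461 for KO4 (412) and from 215 to 440 for KO8 (398), and in primed cells from 1137 to 1458 for KO4 (1789) and from 842 to 1131 for KO8 (1487). One fit over 3 groups gave 713 (KO4) and 1094 (KO8) calls in NPC, against 1681 and 653. Without a filter there were 434 calls for KO8 in NPC and 503 and 742 for KO4 and KO8 in primed cells, and at a mean of at least 50 there were 33 and 51 in naive cells, where few genes remain under the limit of 60. The cause of the other changes was not tested. Small differences that were not called changed sign without a library: Ryr2 in NPC KO8 ranged from -0.056 to 0.38, Hcn4 in naive KO8 from -0.34 to 0.052, Casq2 in primed KO4 from -0.33 to 0.13 and in KO8 from -0.35 to 0.064, and Slc8a1 in primed KO4 from -0.60 to 0.36 and in KO8 from -0.88 to 0.0072. Upper-quartile scaling moved the median of all tested genes by 0.12 for KO4 in CM and by -0.15 for KO8 in naive cells, and the changes of Ryr2, Trdn, Pln, Cacna1c and Hcn4 in CM were larger than this shift. Abundant genes are limited by the digits of the base means and low genes by depth.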
